A study of Mus musculus with 31 samples.

Results

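Glucocorticoid-induced genes were examined in whole retinas of diabetic mice. The list held 9 genes, of which 8 are induced by glucocorticoids in many tissues and 1, Nr3c1, encodes the glucocorticoid receptor itself. Member probes were found by their symbol in the probe annotation, and the list itself was drawn up with earlier results of these data known. Of the 9 genes, 8 had at least 1 probe (Fkbp5, Sgk1, Tsc22d3, Cdkn1a, Plin4, Sult1a1, Errfi1 and Nr3c1), with 11 of the 25697 probes on the array between them, which named 16593 genes in all. No probe carried the symbol Zbtb16, which encodes a zinc finger repressor of transcription. All 11 member probes were among the 16743 kept because they were detected, at a detection p under 0.05, on at least 6 arrays.

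RNA of whole retina had been hybridised to 31 single-colour Illumina BeadChip arrays in 4 groups, all from C57BL/6J mice. Retinas labelled Ins2Akita/Ins2 (9 arrays) carried 1 copy of the Akita allele of the insulin gene Ins2 and were set against wild-type Ins2/Ins2 retinas (8 arrays). Streptozotocin (STZ) retinas (6 arrays) were set against untreated control retinas (8 arrays). Both diabetic groups had been hyperglycaemic for 3 months, and the labels give no age, sex or streptozotocin dose. The Akita allele is present in every cell from birth and leads to loss of insulin-producing beta cells, whereas streptozotocin is a toxin of those cells. Each array is a mixture of all cell types of the tissue, so fewer cells of a type and less RNA per cell cannot be told apart.

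Glucocorticoids enter cells and bind the receptor encoded by Nr3c1, which is held ready by the chaperone HSP90 and its co-chaperones. The bound receptor moves to the nucleus, binds short paired DNA motifs and raises the transcription of target genes, among them genes that damp the hormone's own action. In the retina, the receptor is known to be present in Muller glia, and synthetic glucocorticoids are given into the eye to treat diabetic macular oedema.

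Between 14581 and 16460 probes were detected per array, and any pair of arrays correlated at 0.954 to 0.994. Rod markers (5 of 6 listed genes had a probe) and cone markers (5 of 5) were detected on every array. The 4 groups occupied 4 chips, 1 chip per group, apart from Ins2Akita replicate 9, which was placed with the STZ arrays, so chip and group can hardly be told apart. Markers of neighbouring eye tissue varied widely within every group. The summed intensity of 10 lens genes ran from 260.2 to 92585 in Ins2Akita retinas, against 272 to 82673 in wild-type retinas. In STZ retinas it ran from 6801 to 125280, against 287 to 129631 in untreated retinas. The summed intensity of 9 pigment epithelium genes ran from 5212 to 32038 in Ins2Akita retinas, against 2357 to 25632 in wild-type retinas. It ran from 6220.3 to 25139 in STZ retinas, against 1629 to 22255 in untreated retinas.

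The receptor's recognition motif is a pair of 6-letter half-sites, AGAACA and TGTTCT, read as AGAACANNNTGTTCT when they stand 3 letters apart. Promoter windows of 300 bases (250 before to 50 after an annotated gene start, from RefSeq on build GRCm38.p6) were found for 7 members, 16 windows in all. Nr3c1 and Zbtb16 were not among them. Windows on the chromosome of Nr3c1 were left out for the members but kept in the count over all windows, so half-sites of Nr3c1 were not examined. A half-site in either reading occurred in 5 of the 16 windows, belonging to 3 genes, and in 19.0% of all 32851 windows of that length. The paired motif occurred in 3 of all windows (0.00913%), and 1 of these was an Sgk1 window. Printed here are that Sgk1 window and the windows of Sult1a1 and Plin4, the pair of members that varied most closely together. Each is given 5′ to 3′ on the gene's strand, with every half-site in capitals.
Sgk1, chr10:21993640-21993939, plus strand: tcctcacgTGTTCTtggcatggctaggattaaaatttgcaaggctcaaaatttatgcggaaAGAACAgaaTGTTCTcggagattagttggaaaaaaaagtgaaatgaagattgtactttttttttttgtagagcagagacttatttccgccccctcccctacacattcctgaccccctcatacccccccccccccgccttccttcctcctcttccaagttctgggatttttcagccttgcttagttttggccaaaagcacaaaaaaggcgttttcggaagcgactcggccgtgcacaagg
Sult1a1, chr7:126676369-126676668, minus strand: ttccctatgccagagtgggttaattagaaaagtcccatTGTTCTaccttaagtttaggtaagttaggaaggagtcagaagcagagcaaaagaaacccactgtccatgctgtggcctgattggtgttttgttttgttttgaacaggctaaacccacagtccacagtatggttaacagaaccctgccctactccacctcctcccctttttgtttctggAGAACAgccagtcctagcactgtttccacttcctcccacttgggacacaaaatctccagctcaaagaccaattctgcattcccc
Plin4, chr17:56109733-56110032, minus strand: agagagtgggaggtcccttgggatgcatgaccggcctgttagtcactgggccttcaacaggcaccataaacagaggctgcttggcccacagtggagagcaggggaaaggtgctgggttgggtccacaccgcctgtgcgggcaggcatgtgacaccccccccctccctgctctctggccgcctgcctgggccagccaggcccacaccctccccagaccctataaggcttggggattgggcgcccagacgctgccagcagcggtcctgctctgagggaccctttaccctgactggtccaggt
In the Sgk1 window the parts of the paired motif begin 189 and 180 bases before the gene start, and a further TGTTCT begins 242 bases before it. The Sult1a1 window holds TGTTCT 212 bases and AGAACA 34 bases before the start, too far apart to form the paired motif. The Plin4 window holds neither half-site, nor do the windows of Fkbp5, Cdkn1a and Errfi1. These matches describe letters in a short window, and binding of the receptor was not measured.

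The first question was whether the members were higher or lower in retinas of either diabetes model. None of the 8 measured members passed the test in Ins2Akita against wild type, where 4.16% of all probes did. None passed in STZ against untreated either, where 0.0358% of all probes did. Two-sided tests were run with limma over all 16743 probes, and a change was called at a Benjamini-Hochberg adjusted p under 0.05. At an unadjusted p under 0.05, 2 of 8 members (Sult1a1 and Cdkn1a) were past the threshold in Ins2Akita, against 19.2% of all probes. In STZ, 2 of 8 (Plin4 and Sult1a1) were past it, against 8.55% of all probes. The difference between the models' changes had 0 of 8 members called and 0 past an unadjusted p of 0.05, against 0.0179% and 8.65% of all probes.

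Small positive differences prevailed among the members in both models, without any passing. In Ins2Akita retinas 7 of 8 members were above 0, with a median log2 difference of 0.14, whereas 50.1% of all 11172 genes were above 0 and their median was 0.00044. In STZ retinas 7 of 8 were above 0 with a median of 0.12, whereas 48.4% of all genes were above 0 and their median was -0.0044. The exception in Ins2Akita was Tsc22d3 and in STZ it was Nr3c1. The non-diabetic groups also differed in direction: in untreated against wild type 3 of 8 members were above 0, with a median of -0.08. There 52.4% of all genes were above 0 and their median was 0.011. The untreated arrays are also the reference of the STZ comparison. These counts describe the list and were not tested.

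**Figure D1:**
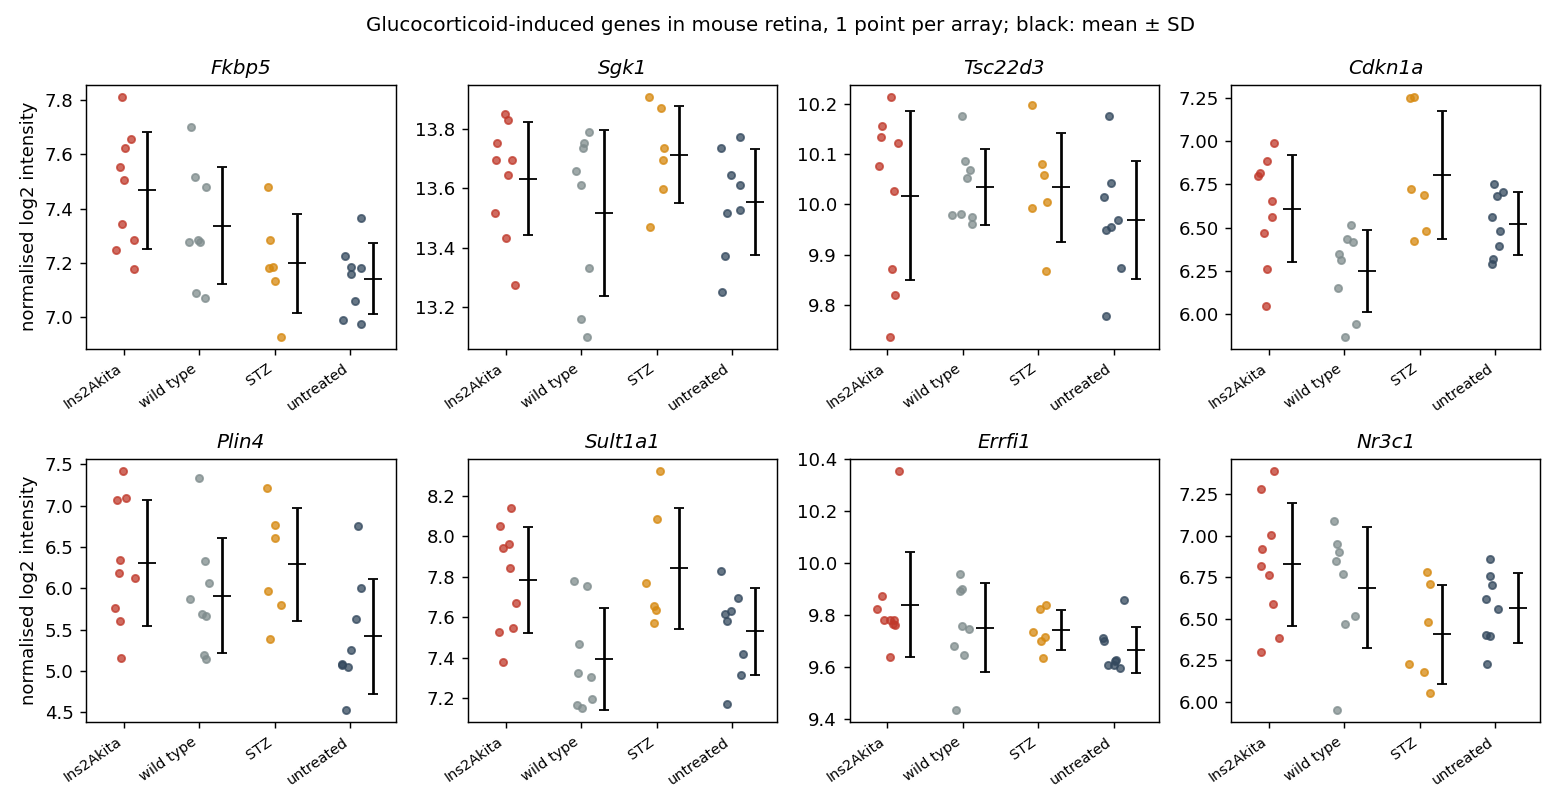
Normalised log2 intensity of the brightest probe of each member (vertical axes, one scale per gene) in the 9 Ins2Akita, 8 wild-type, 6 STZ and 8 untreated arrays, 1 point per array, with the mean ± SD in black. The groups overlap for every gene, Plin4 spreads most within groups, and Sult1a1 has 5 Ins2Akita arrays above the highest wild-type array.

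Nr3c1, the receptor through which the other members are induced, was detected on all 31 arrays. Its normalised log2 intensity was lowest 6.30, median 6.82 and highest 7.39 in Ins2Akita retinas, against 5.95, 6.81 and 7.09 in wild-type retinas. It was 6.05, 6.36 and 6.78 in STZ retinas, against 6.23, 6.59 and 6.86 in untreated retinas. All 4 groups overlapped, and the medians of the Ins2Akita and wild-type groups were almost the same. The log2 difference was 0.14 in Ins2Akita (95% confidence interval -0.16 to 0.45, adjusted p = 0.647) and -0.16 in STZ (-0.50 to 0.18, adjusted p = 0.858). Single arrays moved these values: the Ins2Akita difference was 0.04 without wild type replicate 5, 0.08 without Ins2Akita replicate 6 and 0.07 without Ins2Akita replicate 9, and the STZ difference was -0.09 without STZ replicate 5. On the series matrix values, a second deposited table without background subtraction, the Ins2Akita difference was 0.02. On that table the median Ins2Akita difference over all probes was itself -0.09, against -0.00092 with the settings used. This shift also lies in the Ins2Akita series matrix values of the genes below. The model comparison gave 0.30 (-0.15 to 0.76, adjusted p = 0.773).

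Fkbp5 encodes a co-chaperone that lowers the receptor's affinity for hormone, and its induction by the receptor closes a feedback loop. Its level was 7.18, 7.51 and 7.81 (lowest, median and highest log2 intensity) in Ins2Akita retinas, against 7.07, 7.28 and 7.70 in wild-type retinas. In STZ retinas it was 6.93, 7.18 and 7.48, against 6.97, 7.17 and 7.36 in untreated retinas. Of the Ins2Akita arrays, 7 of 9 were above the wild-type median, and the groups overlapped in both comparisons. Its differences were 0.13 in Ins2Akita (-0.06 to 0.32, adjusted p = 0.462) and 0.06 in STZ (-0.15 to 0.26, adjusted p = 0.933). On the fold scale the upper bounds of these intervals are 1.25 and 1.20. The Ins2Akita difference was 0.04 on the series matrix values, where the median over all probes was -0.09. The STZ difference ran from -0.00017 to 0.11 with single arrays left out, lowest without STZ replicate 2 and highest without STZ replicate 4.

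Sgk1, a kinase that regulates ion channels and transporters, was the member whose promoter window holds the paired motif printed above. Its log2 intensity was 13.27, 13.70 and 13.85 in Ins2Akita retinas, against 13.10, 13.64 and 13.79 in wild-type retinas. STZ retinas had 13.47, 13.72 and 13.91, against 13.25, 13.57 and 13.77 in untreated retinas. The groups overlapped in both comparisons, with 5 of 6 STZ arrays above the untreated median. The difference was 0.12 in Ins2Akita (-0.09 to 0.32, adjusted p = 0.562) and 0.16 in STZ (-0.07 to 0.39, adjusted p = 0.752). With scores of lens and pigment epithelium markers (the mean centred log2 level of the listed genes on an array) as covariates, the Ins2Akita difference was 0.03 (adjusted p = 0.915). It was 0.06 without wild type replicate 6 or 8 and 0.07 with median scaling.

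Tsc22d3, which encodes the leucine zipper protein GILZ and mediates part of the anti-inflammatory action of glucocorticoids, had 2 probes for different transcripts. The brighter probe measured 9.74, 10.08 and 10.21 in Ins2Akita retinas, against 9.96, 10.02 and 10.18 in wild-type retinas. It measured 9.87, 10.03 and 10.20 in STZ retinas, against 9.78, 9.96 and 10.18 in untreated retinas. The groups overlapped throughout, and this probe had the narrowest interval of all members in Ins2Akita. Its difference was -0.02 in Ins2Akita (-0.15 to 0.11, adjusted p = 0.916) and 0.06 in STZ (-0.08 to 0.21, adjusted p = 0.874). The dimmer probe gave 0.21 in Ins2Akita (-0.01 to 0.44, adjusted p = 0.297) and 0.05 in STZ (-0.20 to 0.31, adjusted p = 0.950), so the probes differed in the sign of the Ins2Akita estimate. Leaving out single arrays moved the brighter probe between -0.04 and 0.02 in Ins2Akita and, without STZ replicate 3 or 6 or untreated replicate 7, to 0.03, 0.10 or 0.04 in STZ.

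Errfi1 encodes a feedback inhibitor of the EGF receptor. Its log2 intensity was 9.64, 9.78 and 10.35 in Ins2Akita retinas, against 9.43, 9.75 and 9.96 in wild-type retinas. STZ retinas had 9.63, 9.72 and 9.84, against 9.59, 9.62 and 9.86 in untreated retinas. A single Ins2Akita array, replicate 1, lay apart at 10.35 with the next at 9.87, and all groups overlapped. The difference was 0.09 in Ins2Akita (-0.07 to 0.24, adjusted p = 0.550) with 0.02 without replicate 1 (adjusted p = 0.883) and 0.04 without wild type replicate 5 (adjusted p = 0.793). In STZ it was 0.08 (-0.10 to 0.25, adjusted p = 0.872), with 6 of 6 STZ arrays above the untreated median.

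Cdkn1a encodes p21, an inhibitor of cyclin-dependent kinases that p53 also induces, and it was measured by 3 probes. The brightest gave 6.04, 6.65 and 6.99 in Ins2Akita retinas, against 5.87, 6.33 and 6.51 in wild-type retinas. It gave 6.42, 6.71 and 7.26 in STZ retinas, against 6.29, 6.52 and 6.75 in untreated retinas. Of the Ins2Akita arrays 6 of 9 exceeded the highest wild-type array, and the lowest 2 wild-type arrays were below every Ins2Akita array. The difference was 0.36 in Ins2Akita (SE 0.129, 0.10 to 0.62, adjusted p = 0.107) and 0.28 in STZ (SE 0.143, -0.01 to 0.57, adjusted p = 0.601). The other probes gave 0.02 and 0.18 in Ins2Akita, and 0.27 and 0.19 in STZ. The probe with 0.18 was dim: it was detected on 2 of 9 Ins2Akita arrays and 0 of 8 wild-type arrays. Without Ins2Akita replicate 6, the lowest array of that group, the brightest probe reached 0.43 (adjusted p = 0.0478). It was lower on the series matrix values (0.15, adjusted p = 0.284), where the median over all probes was -0.09. As the mean of the gene's probes it was 0.19 (adjusted p = 0.320).

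Sult1a1, a cytosolic enzyme that adds sulfate to phenolic compounds, came closest to the threshold. It measured 7.38, 7.85 and 8.14 in Ins2Akita retinas, against 7.15, 7.31 and 7.78 in wild-type retinas. It measured 7.57, 7.72 and 8.32 in STZ retinas, against 7.17, 7.60 and 7.83 in untreated retinas. All 9 Ins2Akita arrays lay above the wild-type median and 5 above the highest wild-type array, yet the groups overlapped. The difference in Ins2Akita was 0.39 (SE 0.120, 0.15 to 0.64, 1.31-fold), with an adjusted p of 0.0578. That in STZ was 0.31 (SE 0.133, 0.04 to 0.58, 1.24-fold), with an adjusted p of 0.504 and 5 of 6 arrays above the untreated median. The side of the threshold in Ins2Akita hung on single arrays: without wild type replicate 5 or 7, or Ins2Akita replicate 3 or 5, the adjusted p was 0.0320, 0.0335, 0.0348 or 0.0456. Leaving out any other array kept it uncalled, with an adjusted p of up to 0.112 without Ins2Akita replicate 1. It also stayed uncalled under all 9 alternative settings, at 0.0520 to 0.137, highest with the BeadChip as a block.

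Plin4, a perilipin that coats lipid droplets, varied most between arrays. It measured 5.15, 6.18 and 7.42 in Ins2Akita retinas, against 5.15, 5.78 and 7.34 in wild-type retinas. It measured 5.39, 6.29 and 7.22 in STZ retinas, against 4.52, 5.17 and 6.76 in untreated retinas. Its SD within groups was 0.684 to 0.760 on the log2 scale, and all 6 STZ arrays lay above the untreated median while 2 lay above the highest untreated array. The difference in STZ was the highest of the members, 0.87 (SE 0.361, 0.14 to 1.61, 1.83-fold), with an adjusted p of 0.461. Its untreated reference was dim: the probe was detected on 7 of 8 arrays, with deposited intensities of lowest 3.25 and median 20.3. In Ins2Akita it was 0.39 (SE 0.324, -0.27 to 1.05, adjusted p = 0.536). With the lens and pigment epithelium marker scores as covariates these values were 0.55 in STZ (adjusted p = 0.615) and 0.04 in Ins2Akita (adjusted p = 0.951). On the series matrix values they were 0.51 in STZ and 0.16 in Ins2Akita. Single arrays moved the Ins2Akita value to 0.25 without Ins2Akita replicate 1 and to 0.60 without wild type replicate 7.

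**Figure D2:**
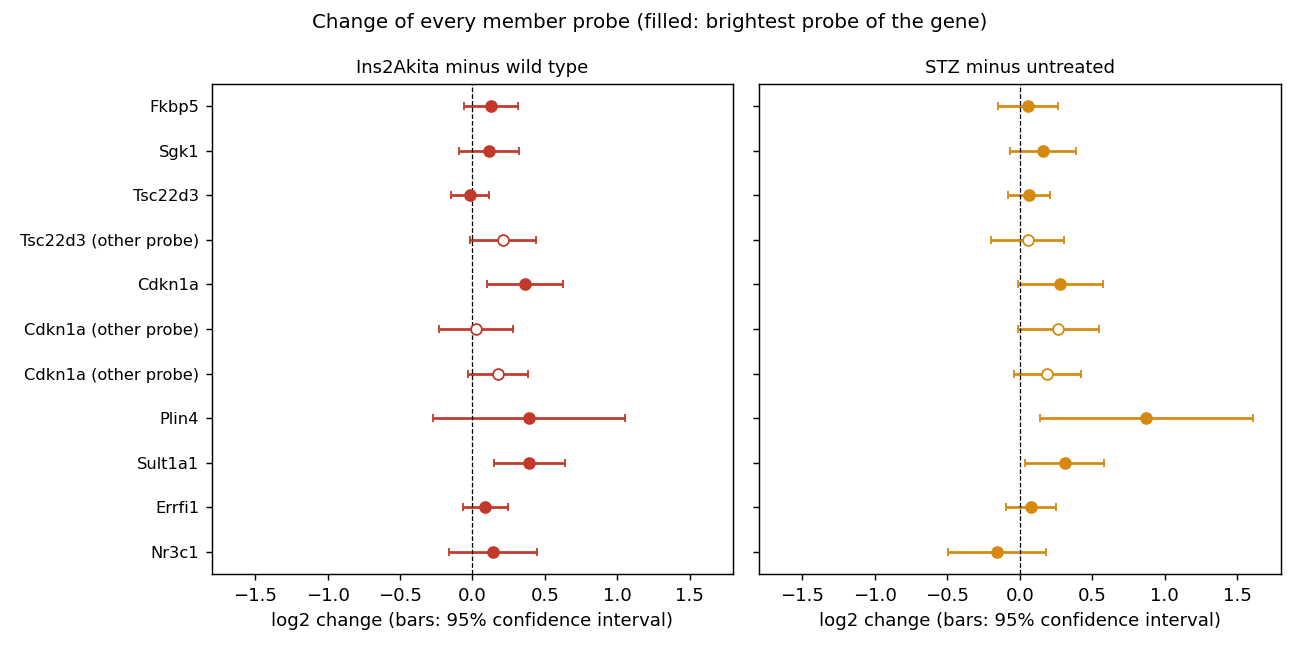
Log2 change of all 11 member probes (rows, filled for the brightest probe of a gene) in Ins2Akita minus wild type (left panel) and STZ minus untreated (right panel), with 95% confidence intervals. Most points lie to the right of 0, most intervals span 0, and the Plin4 intervals, -0.27 to 1.05 in Ins2Akita and 0.14 to 1.61 in STZ, are the widest.

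The non-diabetic groups also differed in many genes, with 22.2% of all probes called in untreated against wild type, a comparison that shares its arrays with both diabetes comparisons. None of the 8 members was among them. Fkbp5 averaged 7.14 ± 0.13 in untreated and 7.34 ± 0.22 in wild-type retinas (SD, n = 8 each), a difference of -0.20 (adjusted p = 0.140). Cdkn1a averaged 6.52 ± 0.18 in untreated and 6.25 ± 0.24 in wild-type retinas, a difference of 0.27 (adjusted p = 0.139). Ordered by the mean of each gene's brightest probe, the 4 groups ran STZ, Ins2Akita, untreated and wild type for Sgk1, Cdkn1a and Sult1a1. For Fkbp5 and Errfi1 the order was Ins2Akita, wild type, STZ and untreated, and for Plin4 it was Ins2Akita, STZ, wild type and untreated. For Tsc22d3 it was wild type, STZ, Ins2Akita and untreated, and for Nr3c1 Ins2Akita, wild type, untreated and STZ. The other Cdkn1a probes ran STZ, untreated, Ins2Akita and wild type, and the dimmer Tsc22d3 probe ran Ins2Akita, STZ, wild type and untreated. Only for the brightest Cdkn1a probe did any neighbours in these orders, untreated and wild type, differ by more than the larger of their SDs.

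Other genes of the pathway were followed through 3 lists. Of 15 genes that make up the receptor's machinery (chaperones, coactivators and hormone-converting enzymes), 11 had a kept probe, and 0 passed in either diabetes comparison while 4.16% and 0.0358% of all probes did. At an unadjusted p under 0.05 there were 2 of 11 in Ins2Akita and 0 in STZ, near or below the 19.2% and 8.55% of all probes. The smallest p-values in Ins2Akita were those of Ppid, an HSP90-bound cyclophilin (-0.18, adjusted p = 0.133), and Ncoa1, a receptor coactivator (0.16, adjusted p = 0.210). In STZ they were those of Ppp5c, a phosphatase of the HSP90 complex (-0.16, adjusted p = 0.625), and Stip1, which links HSP70 and HSP90 (-0.12, adjusted p = 0.644). The median difference of this list was -0.01 in Ins2Akita and -0.01 in STZ, with 5 and 4 of 11 genes above 0.

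A second list held 26 further genes known to be induced by glucocorticoids, of which 23 had a kept probe and 0 passed in either model, while 4.16% of all probes did in Ins2Akita and 0.0358% in STZ. At an unadjusted p under 0.05 there were 5 of 23 in Ins2Akita and 3 of 23 in STZ, where 19.2% and 8.55% of all probes stood. Like the members, they were mostly above 0: 17 of 23 in Ins2Akita with a median of 0.15, and 18 of 23 in STZ with a median of 0.12, beside the values of all genes given above. In untreated relative to wild-type retinas 8 of 23 were above 0, with a median of -0.07. In Ins2Akita the smallest p-values belonged to Nfkbia, the inhibitor of NF-kappaB, and Mertk, a receptor for the uptake of shed photoreceptor membrane. Nfkbia measured 8.35, 8.89 and 9.01 in Ins2Akita retinas, against 8.11, 8.46 and 8.80 in wild-type retinas, a difference of 0.35 (adjusted p = 0.0887). Mertk measured 7.21, 7.54 and 7.77 in Ins2Akita retinas, against 6.82, 7.07 and 7.57 in wild-type retinas, a difference of 0.33 (adjusted p = 0.0946). Both overlapped between groups. Nfkbia was called without Ins2Akita replicate 6 (0.40, adjusted p = 0.0484) and on the series matrix values (0.29, adjusted p = 0.0390). On those values 3953 probes were called in place of 696. With the lens and pigment epithelium scores as covariates Nfkbia was 0.30 (adjusted p = 0.162), and its adjusted p reached 0.197 among the alternative settings. Mertk was called without wild type replicate 5 (0.39, adjusted p = 0.0439). Mertk was lower on the series matrix values (0.20, adjusted p = 0.124) and with the lens and pigment epithelium scores as covariates (0.25, adjusted p = 0.230).

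In STZ the smallest p-values of that list were those of Lcn2, an iron-binding protein of acute stress, and Htra1, a secreted protease. Lcn2 measured 6.21, 6.78 and 7.46 in STZ retinas, against 5.51, 6.38 and 6.59 in untreated retinas, a difference of 0.51 (adjusted p = 0.252) and of 0.33 on the series matrix values. Htra1 measured 9.65, 9.83 and 10.03 in STZ retinas, against 9.52, 9.60 and 9.74 in untreated retinas, a difference of 0.22 (adjusted p = 0.284). Between the non-diabetic groups, 1 gene of the list rose and 4 fell in untreated relative to wild-type retinas, named after their values were seen (11.4% of all probes were called higher and 10.9% lower). Klf15, a transcription factor, rose by 0.39 (adjusted p = 0.00216), and Mt1 (metallothionein), Lcn2, Irs2 (insulin receptor substrate) and Htra1 fell by 0.46, 0.45, 0.36 and 0.20 (adjusted p = 0.0229, 0.0231, 0.0303 and 0.0295). Of the 11 kept genes of the receptor machinery, 0 rose and 1 fell in that comparison, where 10.9% of all probes were called lower. It was Fkbp4, the co-chaperone that competes with Fkbp5, which fell by 0.23 (adjusted p = 0.0195).

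Of 10 inflammatory genes that glucocorticoids repress, 4 had a kept probe (Mmp9, Icam1, Vcam1 and Nos2), and 1 fell. Mmp9, a secreted matrix protease, measured 7.82, 7.95 and 8.01 in Ins2Akita retinas, against 8.05, 8.19 and 8.57 in wild-type retinas. Mmp9 fell by 0.30 on the log2 scale (SE 0.0767, adjusted p = 0.0229), in a comparison in which 2.4% of all probes were called lower. The call was lost without wild type replicate 1 (-0.25, adjusted p = 0.0561) and when the BeadChip entered as a random block (-0.29, adjusted p = 0.0716). Because chip and group nearly coincide, the block fit can hardly gauge a chip effect. In STZ retinas it measured 7.90, 8.26 and 8.47, against 8.14, 8.36 and 8.51 in untreated retinas, a difference of -0.14 (adjusted p = 0.701). After Mmp9, Vcam1, an endothelial adhesion molecule, had the smallest p of the list in Ins2Akita (0.07, adjusted p = 0.680), and in STZ Mmp9 and Vcam1 (0.13, adjusted p = 0.749) were lowest.

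The next question was whether the members varied together from array to array within groups. Deviations from the group mean were correlated over all 31 arrays for the 28 pairs of members, with two-sided permutation p-values from 100000 shuffles of arrays within groups, adjusted over the 28 pairs. The median r was 0.17, 21 pairs were above 0, and 2 pairs passed. Plin4 and Sult1a1 had r = 0.645 (p = 0.00032, adjusted 0.00896) and rho = 0.628 (p = 0.00069, adjusted 0.0193). Without the 2 arrays farthest from the median of Plin4, r was 0.573. Within groups r was 0.723 in Ins2Akita, 0.816 in wild type, 0.430 in STZ and 0.554 in untreated retinas, so the direction was shared by all 4. Tsc22d3 and Cdkn1a had r = 0.608 (p = 0.00083, adjusted 0.0116) and rho = 0.590 (p = 0.00143, adjusted 0.0200). Without the 2 arrays farthest from the median of Tsc22d3, r was 0.472, and within groups it was 0.804 in Ins2Akita, 0.379 in wild type, 0.574 in STZ and 0.471 in untreated retinas.

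**Figure D3:**
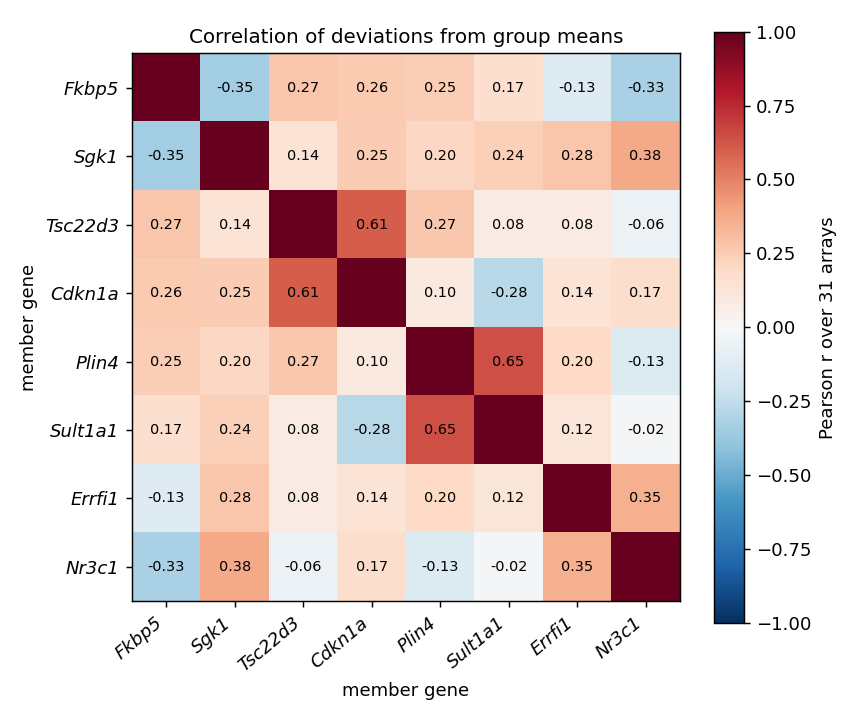
Pearson r of deviations from group means over 31 arrays for the 28 pairs of members (rows and columns: genes, colour and number: r). Plin4 with Sult1a1 (0.65) and Tsc22d3 with Cdkn1a (0.61) stand above the rest, and Fkbp5 is below 0 with Sgk1, Nr3c1 and Errfi1.

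Fkbp5, the member often read as a sign of receptor activity, passed with none of the other members. Its r was 0.274 with Tsc22d3, 0.263 with Cdkn1a, 0.248 with Plin4, 0.166 with Sult1a1 and -0.129 with Errfi1. With Sgk1 it was -0.351 (permutation p = 0.0803) and with Nr3c1 -0.328 (permutation p = 0.112), the lowest pairs of all, followed by Cdkn1a with Sult1a1 at -0.276. The Fkbp5 and Sgk1 value rested on the wild-type arrays, where r was -0.907, whereas it was -0.0571 in Ins2Akita, 0.0854 in STZ and 0.0598 in untreated retinas. The third highest pair, Sgk1 with Nr3c1, had r = 0.382 (p = 0.0536, adjusted 0.438).

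Marker scores of neighbouring tissue moved with some members, in 16 comparisons (8 members, 2 scores) chosen after the data were seen. Plin4 moved with the pigment epithelium score within groups, with r = 0.775 (permutation p = 1e-05, the smallest the shuffles can give, adjusted 0.00016) and rho = 0.635 (adjusted 0.00512). Without the 2 arrays farthest from the median of Plin4, r was 0.687. In the groups it was 0.783 in Ins2Akita, 0.887 in wild type, 0.502 in STZ and 0.801 in untreated retinas. Sult1a1 had r = 0.557 with the same score (p = 0.00179, adjusted 0.0143) and rho = 0.527 (adjusted 0.0341). Its r was 0.772 in Ins2Akita, 0.864 in wild type and 0.587 in untreated retinas but -0.420 in STZ retinas, and 0.639 over all arrays without the 2 farthest. That score averaged 0.427 in Ins2Akita (SD 1.21), against -0.395 in wild-type retinas (SD 1.31). It averaged 0.281 in STZ (SD 0.81), against -0.296 in untreated retinas (SD 1.30). With both scores as covariates Sult1a1 differed by 0.31 in Ins2Akita (adjusted p = 0.105) and by 0.20 in STZ (adjusted p = 0.794). The part of pigment epithelium RNA in the levels of Plin4 and Sult1a1 was not tested further.

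The lens score moved the other way with 2 members. Cdkn1a had r = -0.521 with it (permutation p = 0.00331, adjusted 0.0177), rho = -0.492 (adjusted 0.0381) and -0.475 without the 2 farthest arrays, with the same sign in all 4 groups. Sgk1 had r = -0.505 (permutation p = 0.00619, adjusted 0.0248), rho = -0.474 (adjusted 0.0481) and -0.422 without the 2 farthest arrays, also with 1 sign in all groups. After median scaling in place of quantile normalisation, r was -0.279 for Sgk1 and -0.526 for Cdkn1a. The lens score averaged -0.835 in Ins2Akita (SD 2.55), against 0.584 in wild-type retinas (SD 2.33). It averaged 0.887 in STZ (SD 1.90), against -0.310 in untreated retinas (SD 2.47). With both scores as covariates Cdkn1a differed by 0.28 in Ins2Akita (adjusted p = 0.212) and by 0.36 in STZ (adjusted p = 0.493). The part of lens RNA in these levels was not tested further.

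**Figure D4:**
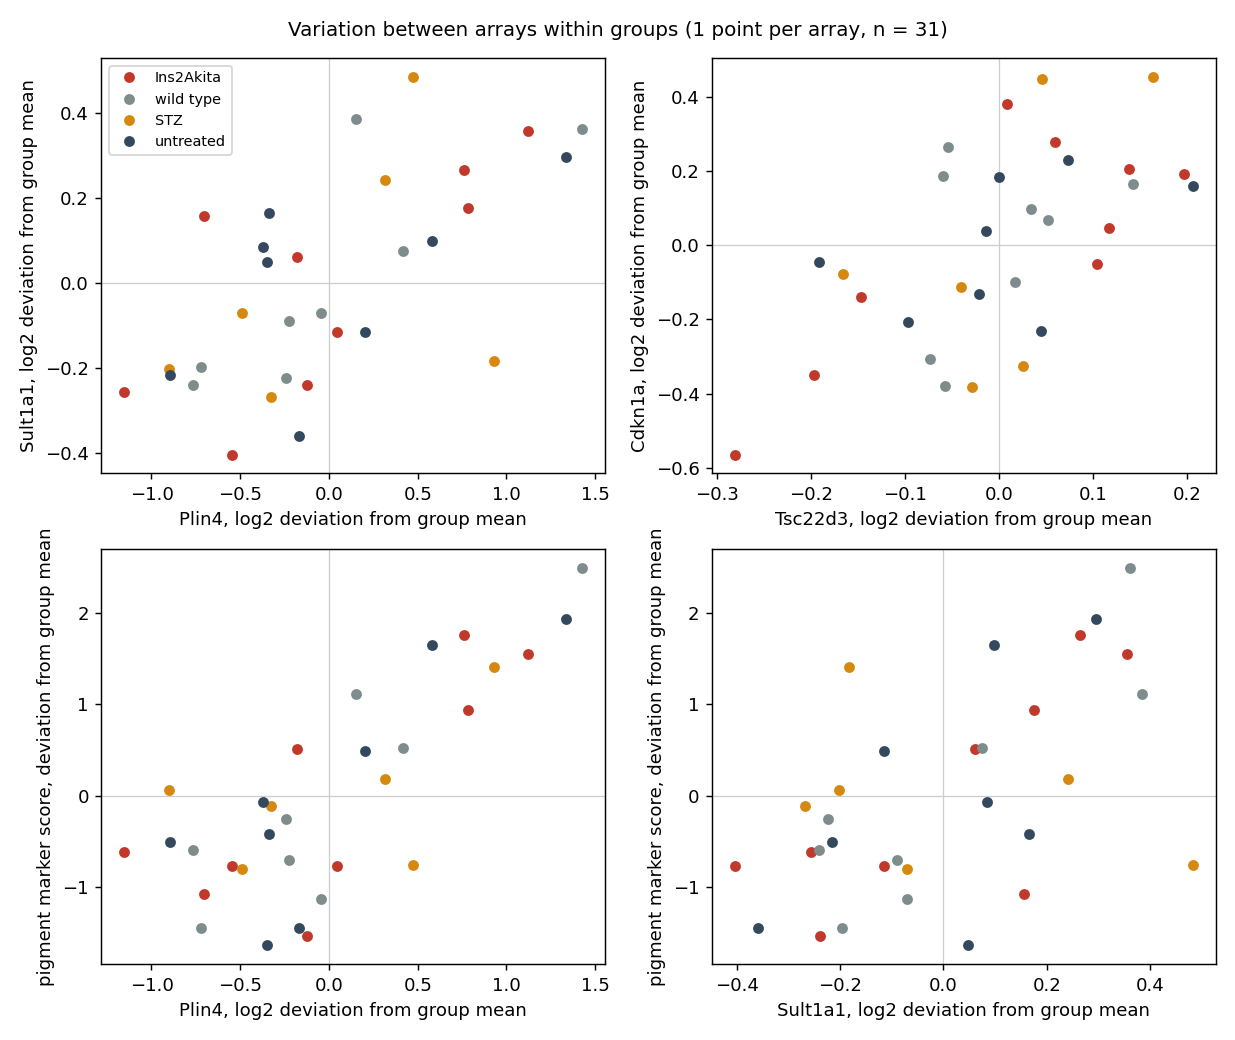
Deviation of each of the 31 arrays from its group mean, in log2 units, for Sult1a1 against Plin4 (top left), Cdkn1a against Tsc22d3 (top right), and the pigment epithelium marker score against Plin4 and Sult1a1 (bottom), 1 point per array coloured by group. All panels slope upwards, with r of 0.645, 0.608, 0.775 and 0.557.

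Outside the list, the genes most like each member were sought among 11164 named genes by the same correlation over 31 arrays, as a description. Plin4 had 219 genes above 0.7, led by Niban1 (0.920), Otx1 (0.920) and Zfp185 (0.909). Sult1a1 had 30, led by Gsta3, Zic1 and Zic4 (0.751, 0.751 and 0.750). Nr3c1 had 19, led by Ing2 (0.803), Celf1 (0.794) and Ppp1r2 (0.773), and Sgk1 had 7, led by Ttc3 (0.781), Dab2ip (0.758) and Dkk3 (0.752). Cdkn1a had only Arrdc2 (0.720), an arrestin-domain gene that is itself on the list of induced genes, and Fkbp5 only Selenbp1 (0.729). Tsc22d3 and Errfi1 had 0 genes above 0.7.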

How the data were processed

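Whole-retina RNA was measured on 31 Illumina arrays, with groups and replicate numbers from the labels. Whether each array is a separate animal is not stated, so p-values reflect only the scatter among these arrays, in part possibly technical. The authors deposited linear probe intensities, background-subtracted and scaled to one mean per array as the values show, with a detection p-value per probe. BeadStudio is named in the submitters' processing notes, without version or settings. Differences in total signal between arrays therefore cannot be seen. A second deposited intensity table, the series matrix, differed from it by a linear function per array to within 0.0107 and without background subtraction, with column medians of 74.0 to 95.8.

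Intensities were normalised with neqc (offset 16) of limma 3.58.1 in R 4.3.3, giving log2 values in which changes of dim probes are understated. Levels are not compared between probes. The platform annotation gave 1 symbol to 23978 of 25697 probes, several to 0 and listed no entry for 1719, with symbols updated through GRCm38.p6 gene names. Probes with a detection p under 0.05 on at least 6 arrays were kept. A model with 4 group means was fitted with lmFit and eBayes, two-sided p-values received Benjamini-Hochberg adjustment across 16743 probes, and confidence intervals are 95%. A gene's brightest kept probe stood for it, and all member probes are given. Marker scores are means of the centred log2 values of the listed genes. Correlations used Python 3.11.15.

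Members, lists and tests were chosen with earlier results of these data known. Named were all members, the called genes of each pathway list or otherwise the 2 with the smallest p per comparison, pairs with Fkbp5, the 3 highest and 3 lowest pairs, and up to 3 similar genes above 0.7 per member. Alternatives were median scaling, the series matrix, other filters, fits with 2 groups only, the BeadChip or replicate number as a block, marker scores as covariates, the mean of a gene's probes, and leaving out each array.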

Additional observations from a re-analysis of the deposited data

Results flagged for a closer look

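Of 44 sets of arrays (11 member probes in 4 groups), 3 held an array whose distance from its neighbour was past Dixon's 95% critical value, where chance gives about 1 in 20. Errfi1 had its highest Ins2Akita array, replicate 1, at a log2 intensity of 10.35, with the next at 9.87. Errfi1 also had its highest untreated array, replicate 3, at 9.86, with the next at 9.71. The dimmest Cdkn1a probe had its highest wild-type array, replicate 6, at 4.85, with the next at 4.62, and that probe was detected on 0 of 8 wild-type arrays.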

How the results depend on the processing

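Under the 9 alternatives to the settings used, 8 for the difference between the models, which has no fit with only its own groups, 0 of the 8 members were called in any of the 4 comparisons. Leaving out single arrays gave 0 to 1 members called in Ins2Akita against wild type. All probes called in that comparison (696) numbered 3953 with the series matrix values (470 higher and 3483 lower, with a median over all probes of -0.09, against 295 higher and 401 lower of the 696), 448 with only these groups, 228 with the BeadChip block and 470 to 781 with 1 array left out. Those in STZ against untreated (6) numbered 2 with the series matrix, 0 with only these groups (limma), 1 with the BeadChip block, 2 with the marker scores and 2 to 21 with 1 array left out, highest without STZ replicate 5. With the replicate number as a block the count was 17, but same-numbered arrays did not deviate together (median r -0.03 over 42 pairs, 14 above 0.1). For the difference between the models (3) they numbered 12 with the series matrix, 6 without the filter, 1 with the BeadChip block, 6 with the marker scores, 1 with the mean of probes and 1 to 9 with 1 array left out. Reversed signs were all uncalled. In Ins2Akita, Tsc22d3 was 0.0033 with the series matrix, 0.0978 with the mean of probes and -0.0419 to 0.0178 with 1 array left out. In STZ, Fkbp5 was -0.00017 to 0.110 with 1 array left out. In the difference between the models, Fkbp5 was -0.0103 with the replicate block, Tsc22d3 0.0388 with the mean of probes, and Cdkn1a -0.0363 with the series matrix, -0.0816 with the marker scores and -0.0602 with the mean of probes. Errfi1 there was -0.0274 with median scaling and -0.0513 to 0.0426 with 1 array left out. In untreated against wild type, Sgk1 was -0.118 with median scaling, -0.0316 with the series matrix, -0.0014 with the marker scores and -0.0233 to 0.0799 with 1 array left out. The causes were not tested. Because chip and group nearly coincide, the fits with the BeadChip block can hardly gauge a chip effect. Arrays have no read depth, and their number and, for dim probes such as the third of Cdkn1a, signal over background limit the precision.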
